A study of Mus musculus with 14 samples.

Results

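The PPAR, ERR and PGC-1 regulators are 10 genes that switch fuel use and mitochondrial genes in heart muscle, and they were taken by name (Ppara, Ppard, Pparg, Rxrg, Ppargc1a, Ppargc1b, Esrra, Esrrb, Esrrg and Tfam) from 19937 genes measured. All 10 were measured. Where a symbol had several probe sets of its own, the brightest one stood for the gene, and among the members this was so for Ppargc1a alone. Left ventricles were profiled 3 weeks after surgery on 14 Affymetrix mouse gene arrays, from CXCR5-/- AB (n = 4), CXCR5-/- Sham (n = 3), WT AB (n = 4) and WT Sham (n = 3) mice. All mice were male on a C57BL/6 background. CXCR5-/- mice lack the chemokine receptor CXCR5 in the whole body, since its coding region was replaced by a neomycin resistance gene. AB is aortic banding, a narrowing of the aorta against which the left ventricle must pump. Sham mice had surgery without a band. Values are log2 expression, so a difference of -1 is a halving.

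PPARs are nuclear receptors that sense fatty acids, bind DNA together with a retinoid X receptor, and switch on genes of fatty acid uptake and oxidation. PGC-1 coactivators do not bind DNA themselves but dock on PPARs and on the estrogen-related receptors (ERRs), which need no known hormone and drive genes of the citric acid cycle and the respiratory chain. TFAM carries this programme into the mitochondrion, where it packages mitochondrial DNA and helps start its transcription. In the adult heart the whole circuit is known for keeping up fatty acid oxidation.

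The labels were checked first. The probe set of the targeted gene, Cxcr5, lay at 3.97 to 4.47 on CXCR5-/- AB arrays and at 3.85 to 4.11 on CXCR5-/- Sham arrays, against 3.03 to 3.30 on WT AB arrays and 3.23 to 3.24 on WT Sham arrays. It was thus higher on every array labelled CXCR5-/-. The position of this probe set relative to the neomycin gene was not known, so its level is no check of the labels. The genotypes are therefore called by their labels. Cardiomyocyte markers such as Myh6 and Tnnt2 were bright on every array, as the tissue label says, with a list mean over 10 genes of 12.06 to 12.35. Myl7, the atrial myosin light chain, stood apart on 3 Sham arrays, reading 9.68 (replicate 1) and 8.82 (replicate 2) in the CXCR5-/- Sham group and at 9.09 (replicate 1) in the WT Sham group. The remaining 11 arrays lay between 5.65 and 7.49. The mean of the atrial list of 6 genes was highest on an AB array, CXCR5-/- AB replicate 4 (8.29). The 3 Sham arrays came next, at 8.12, 7.74 and 7.81, and the others lay at 6.70 to 7.58. The list includes Nppa, the gene of ANP, which the paper reports as raised by AB, more so in CXCR5-/- mice. The 3 Sham arrays were chosen by Myl7 alone, after the data were examined, and the main results are also given without them. That fit leaves 1 array in CXCR5-/- Sham, so a call lost there cannot be told apart from lost precision.

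After AB, Ppara and Rxrg were called lower in both genotypes. Esrra was called lower in CXCR5-/- hearts, and in WT hearts it also averaged lower (-0.25) but was not called. No member was called different between the genotypes in its AB response. In CXCR5-/- hearts 3 of the 10 members passed the test downwards (adjusted p under 0.05, limma), while 5.86% of all genes did so. In WT hearts 2 of 10 passed downwards, against 4.22% of all genes. No member passed upwards in either genotype, and 8.28% of all genes did so in CXCR5-/- hearts and 5.1% in WT hearts. The median difference of the members was -0.26 in CXCR5-/- hearts and -0.25 in WT hearts, and that of all genes was -0.01 and 0.01. The members were chosen with earlier results of these data known.

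**Figure D1:**
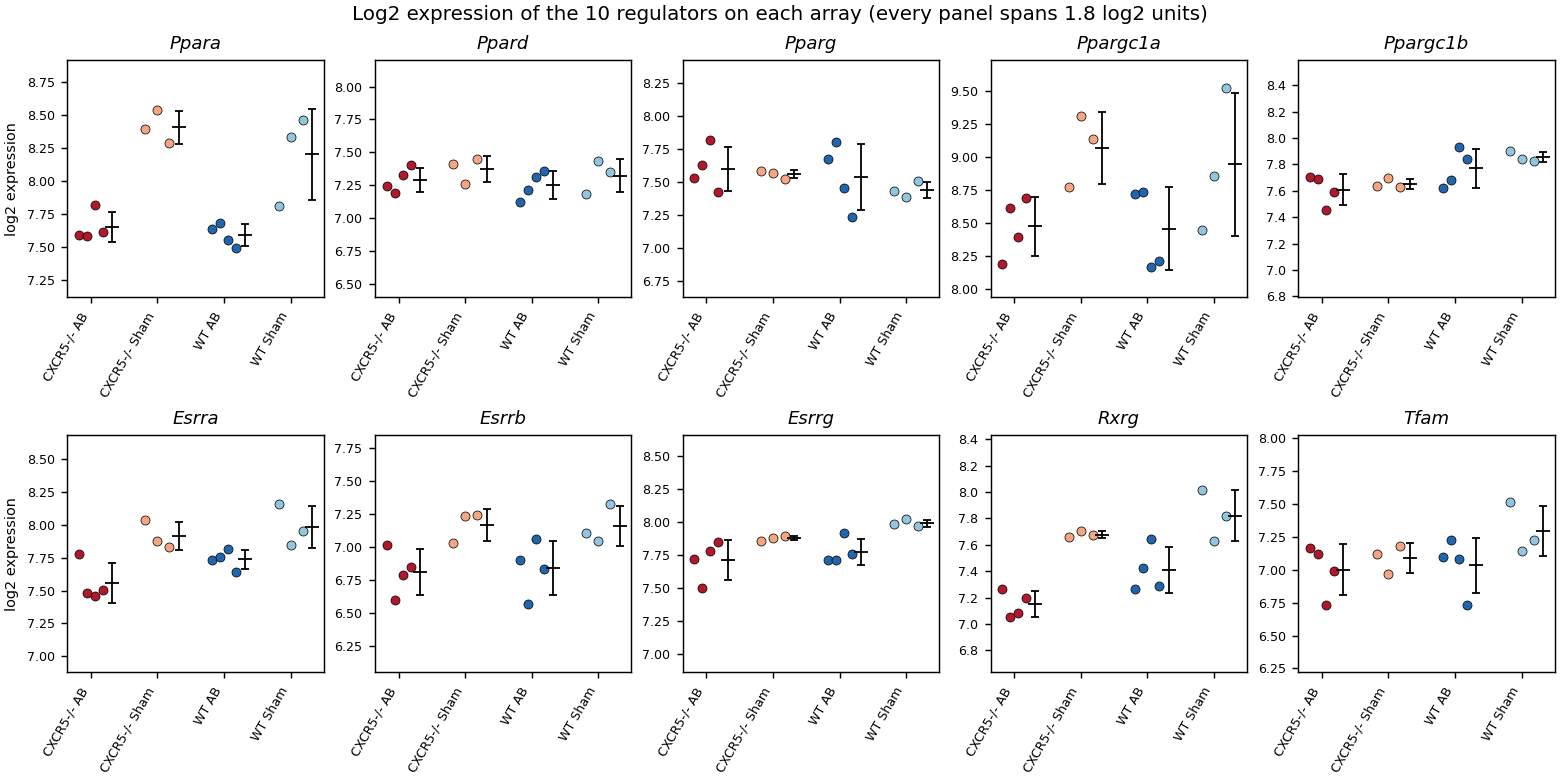
Log2 expression of each of the 10 genes on every array, by group, with the mean and SD as a black bar beside the points. Ppara averaged lower on the AB arrays (7.49 to 7.82) than on the Sham arrays (7.81 to 8.54). So did Rxrg (7.05 to 7.65 against 7.63 to 8.02). Ppargc1a had the widest spread between arrays.

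Ppara encodes PPAR alpha, the main PPAR of fatty acid oxidation in the heart. Its log2 expression was 7.59, 7.58, 7.82 and 7.61 on the CXCR5-/- AB arrays, against 8.40, 8.54 and 8.29 on the CXCR5-/- Sham arrays. In WT hearts it was 7.64, 7.68, 7.55 and 7.49 after AB, against 7.81, 8.33 and 8.46 after Sham. The groups did not overlap in either genotype, and the lowest Sham array was WT Sham replicate 1, which was one of the arrays of high Myl7. Ppara fell by 0.76 on the log2 scale in CXCR5-/- hearts (95% interval -1.03 to -0.49, SE 0.13, adjusted p = 0.000573), a change of -40.8%. In WT hearts it fell by 0.61 (95% interval -0.88 to -0.34, SE 0.13, adjusted p = 0.005), a change of -34.5%. It passed with each array left out in turn. Without the 3 arrays of high Myl7 the differences were -0.64 in CXCR5-/- hearts (adjusted p = 0.0179) and -0.80 in WT hearts (adjusted p = 0.000663). In order of the group means, WT AB (7.59 ± 0.09) and CXCR5-/- AB (7.65 ± 0.11) lay lowest, then WT Sham (8.20 ± 0.34) and CXCR5-/- Sham (8.41 ± 0.12, SD). The neighbours of the same operation overlapped.

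The upstream sequences of the 3 members that passed are shown because all 3 fell with AB in CXCR5-/- hearts. Each is the 250 bases before a RefSeq transcript start of GRCm38.p6, written along the gene. Capitals mark a match to the core of NRF-1 elements (GCGC, any 2 bases, GCGC) or to the core of nuclear receptor elements (AGGTCA), both searched on both strands.
Ppara, chr15:85735526-85735775, plus strand: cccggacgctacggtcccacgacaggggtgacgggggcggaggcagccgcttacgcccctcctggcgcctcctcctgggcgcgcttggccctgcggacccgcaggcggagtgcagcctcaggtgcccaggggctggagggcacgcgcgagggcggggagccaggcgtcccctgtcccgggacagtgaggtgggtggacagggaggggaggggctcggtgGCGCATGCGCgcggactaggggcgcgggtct
Rxrg, upstream of the first start, chr1:167598112-167598361, plus strand: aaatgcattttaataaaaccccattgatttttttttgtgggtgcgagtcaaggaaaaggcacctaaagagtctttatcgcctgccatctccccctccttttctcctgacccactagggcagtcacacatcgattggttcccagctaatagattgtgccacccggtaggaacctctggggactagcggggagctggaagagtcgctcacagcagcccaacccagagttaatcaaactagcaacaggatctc
Rxrg, upstream of the second start, chr1:167618015-167618264, plus strand: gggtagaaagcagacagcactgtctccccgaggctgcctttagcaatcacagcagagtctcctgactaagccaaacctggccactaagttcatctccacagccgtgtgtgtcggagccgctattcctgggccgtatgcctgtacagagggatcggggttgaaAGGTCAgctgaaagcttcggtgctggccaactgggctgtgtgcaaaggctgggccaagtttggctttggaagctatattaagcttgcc
Esrra, chr19:6921809-6922058, minus strand: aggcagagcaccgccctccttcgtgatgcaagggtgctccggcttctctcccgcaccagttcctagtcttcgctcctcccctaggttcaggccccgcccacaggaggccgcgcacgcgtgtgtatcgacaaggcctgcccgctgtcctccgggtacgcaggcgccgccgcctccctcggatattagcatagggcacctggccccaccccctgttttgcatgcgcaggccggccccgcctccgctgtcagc
The Ppara window held the NRF-1 core from base -31, which 4.977% of 32851 such mouse windows hold. The Rxrg window of the second start held AGGTCA from base -88, which 14.024% of windows hold, and the Esrra window held none of the letters searched. Over 16 windows of 9 members, AGGTCA was found in 3 (also before 2 starts of Pparg) and the NRF-1 core in 1. The ERR element TNAAGGTCA, which includes AGGTCA, and the cAMP response element TGACGTCA were in 0 of the 16, and 1.138% and 1.546% of all windows hold them. A match is a run of letters and no measure of binding.

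Ppard and Pparg, the other PPARs, did not pass. Ppard, which is active in most tissues, lay at 7.19 to 7.40 on CXCR5-/- AB arrays and 7.26 to 7.45 on CXCR5-/- Sham arrays, and at 7.13 to 7.36 on WT AB arrays and 7.18 to 7.43 on WT Sham arrays. Its difference was -0.08 in CXCR5-/- hearts (interval -0.28 to 0.12) and -0.07 in WT hearts (interval -0.27 to 0.13). It had the smallest range of the 10 genes over the 14 arrays, 0.32. Pparg, best known as the PPAR of fat cells, lay at 7.43 to 7.82 on CXCR5-/- AB arrays and 7.53 to 7.59 on CXCR5-/- Sham arrays, and at 7.23 to 7.80 on WT AB arrays and 7.39 to 7.51 on WT Sham arrays. Its values spread more after AB than after Sham in both genotypes, and the groups overlapped. The difference was 0.04 in CXCR5-/- hearts (interval -0.22 to 0.30) and 0.10 in WT hearts (interval -0.16 to 0.36). The fat cell hormone Adipoq lay at 4.07 to 6.89 on CXCR5-/- AB arrays and 3.51 to 4.91 on CXCR5-/- Sham arrays, and at 3.91 to 5.68 on WT AB arrays and 3.77 to 4.30 on WT Sham arrays. None of the 7 white adipocyte markers passed in either genotype, and the list mean lay at 5.62 to 6.78 and 5.50 to 6.20 in CXCR5-/- AB and Sham hearts, and at 5.70 to 6.35 and 5.38 to 5.89 in WT AB and Sham hearts. Their part in the Pparg values was not tested.

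Rxrg encodes RXR gamma, the retinoid X receptor found mainly in muscle and brain and a DNA-binding partner of PPARs. It was at 7.26, 7.05, 7.08 and 7.20 on CXCR5-/- AB arrays, against 7.66, 7.71 and 7.67 on CXCR5-/- Sham arrays. In WT hearts it was at 7.27, 7.43, 7.65 and 7.29 after AB, against 8.02, 7.63 and 7.82 after Sham. The CXCR5-/- groups lay apart, while WT AB replicate 3 just overlapped WT Sham replicate 2. Rxrg fell by 0.53 in CXCR5-/- hearts (95% interval -0.76 to -0.30, SE 0.11, adjusted p = 0.00282), a change of -30.7%. It fell by 0.41 in WT hearts (95% interval -0.64 to -0.18, SE 0.11, adjusted p = 0.022), a change of -24.9%. The call in CXCR5-/- hearts held with each array left out in turn. The call in WT hearts was lost without WT AB replicate 1 (adjusted p = 0.0695), without WT Sham replicate 1 (adjusted p = 0.0982) and without WT Sham replicate 3 (adjusted p = 0.075). It was also lost in WT hearts with array weights (adjusted p = 0.0644), with all probe sets tested (adjusted p = 0.0552), with the compared groups alone (adjusted p = 0.0759) and with significance analysis of microarrays (q = 0.0521). With the arrays of high Myl7 left out, the differences were -0.52 in CXCR5-/- hearts (adjusted p = 0.0911) and -0.32 in WT hearts (adjusted p = 0.136), while with Myl7 as a covariate they were -0.46 (adjusted p = 0.0307) and -0.38 (adjusted p = 0.0455) and passed.

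Ppargc1a, which encodes PGC-1 alpha, the inducible coactivator of mitochondrial genes, was lower on average after AB and did not pass in either genotype with the 4 groups in 1 limma fit, while other fits called it in CXCR5-/- hearts. It was at 8.19, 8.61, 8.39 and 8.69 on CXCR5-/- AB arrays, against 8.77, 9.31 and 9.13 on CXCR5-/- Sham arrays. On WT arrays it was at 8.72, 8.74, 8.16 and 8.21 after AB, against 8.45, 8.86 and 9.53 after Sham. The CXCR5-/- groups did not overlap, and WT Sham replicate 1, of high Myl7, lay below 2 WT AB arrays. The difference was -0.60 in CXCR5-/- hearts (SE 0.21, interval -1.05 to -0.15, adjusted p = 0.0752) and -0.49 in WT hearts (SE 0.21, interval -0.94 to -0.04, adjusted p = 0.193). Its SD within groups, 0.345 pooled over the 4 groups, was the largest of the members, which ranged from 0.1 for Esrrg. Without WT Sham replicate 1 the difference in WT hearts was -0.74 and passed (adjusted p = 0.038), and that in CXCR5-/- hearts then passed too (adjusted p = 0.041). Without WT Sham replicate 3 it was -0.20 in WT hearts, and the CXCR5-/- difference passed (adjusted p = 0.0307). In CXCR5-/- hearts it passed with significance analysis of microarrays, the method the study names (q = 0.00583), with array weights (adjusted p = 0.0047), with the compared groups alone (adjusted p = 0.0146) and with Myl7 as a covariate (-0.82, adjusted p = 0.037). Leaving out all 3 arrays of high Myl7 gave -0.66 in CXCR5-/- hearts (adjusted p = 0.247) and -0.74 in WT hearts (adjusted p = 0.0517).

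The second Ppargc1a probe set was also lower on average after AB and did not pass. It was at 7.52, 8.01, 7.47 and 7.45 on CXCR5-/- AB arrays, against 8.13, 8.24 and 8.34 on CXCR5-/- Sham arrays. In WT hearts it was at 8.48, 8.39, 7.22 and 7.34 after AB, against 7.998, 7.996 and 8.449 after Sham. WT AB replicates 1 and 2 were high and replicates 3 and 4 low on both probe sets. Its difference was -0.62 in CXCR5-/- hearts (adjusted p = 0.24) and -0.29 in WT hearts (adjusted p = 0.694). Ucp1, the brown fat uncoupling protein, was at 6.69 on CXCR5-/- Sham replicate 2 and at 3.57 to 4.50 on the other 13 arrays. On CXCR5-/- Sham replicate 2 the brighter Ppargc1a probe set had the highest value of its group, 9.31. The second probe set (8.24) lay below that of replicate 3 (8.34). The highest Ppargc1a value of all arrays was 9.53, on WT Sham replicate 3, where Ucp1 was at 3.88. The brown adipocyte list of 6 genes had its highest mean, 7.04, in the CXCR5-/- Sham group (lowest 6.39), against 6.60 to 6.75 in CXCR5-/- AB, 6.56 to 6.77 in WT AB and 6.42 to 6.67 in WT Sham hearts. Of that list 1 gene passed upwards with AB in each genotype and 0 downwards. Its part in the Ppargc1a values was not tested.

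**Figure D2:**
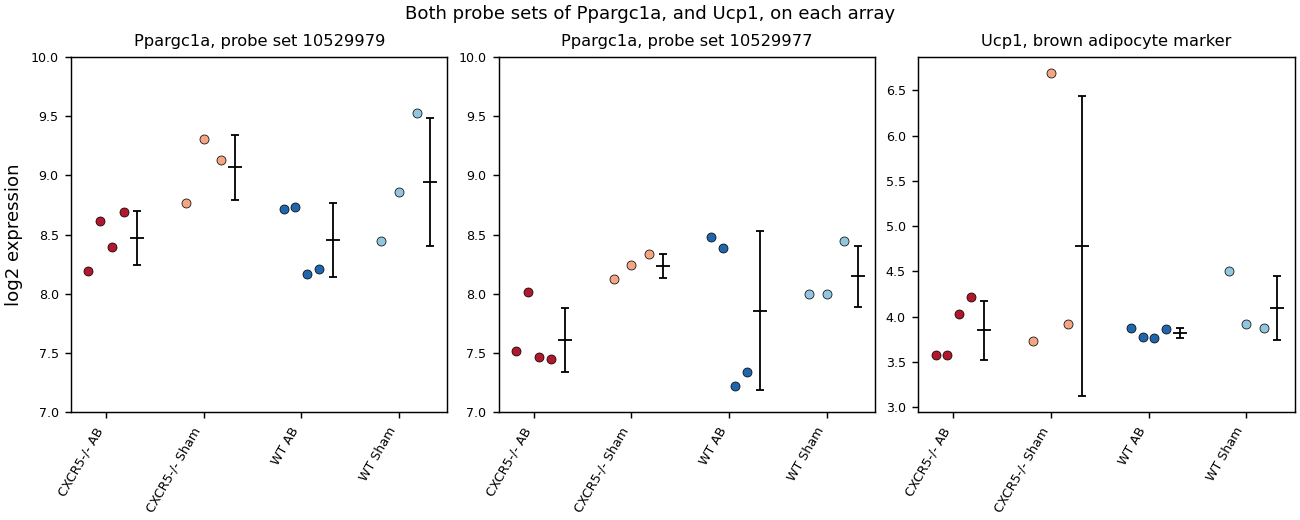
Log2 expression of both Ppargc1a probe sets and of Ucp1 on every array, by group, with mean and SD as a black bar. WT AB arrays fall into a high and a low pair on both probe sets, and Ucp1 was at 6.69 on 1 CXCR5-/- Sham array alone.

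Ppargc1b, which encodes the related coactivator PGC-1 beta, was at 7.45 to 7.71 on CXCR5-/- AB arrays and 7.63 to 7.70 on CXCR5-/- Sham arrays, and at 7.62 to 7.93 on WT AB arrays and 7.83 to 7.90 on WT Sham arrays. Its difference with AB was -0.04 in CXCR5-/- hearts (interval -0.24 to 0.16) and -0.09 in WT hearts (interval -0.29 to 0.11), and the AB and Sham groups overlapped.

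The 3 ERR genes were all lower on average after AB. Esrra encodes ERR alpha, the ERR most tied to respiratory chain genes. It was at 7.78, 7.48, 7.46 and 7.50 on CXCR5-/- AB arrays, against 8.04, 7.88 and 7.83 on CXCR5-/- Sham arrays. On WT arrays it was at 7.73, 7.75, 7.82 and 7.64 after AB, against 8.15, 7.84 and 7.95 after Sham. No AB array reached its Sham group in either genotype, though the gaps were small. Esrra fell by 0.36 in CXCR5-/- hearts (95% interval -0.58 to -0.14, SE 0.10, adjusted p = 0.0247), a change of -22.1%. The difference of -0.25 in WT hearts did not pass (95% interval -0.47 to -0.03, SE 0.10, adjusted p = 0.162). With 1 array left out at a time the call in CXCR5-/- hearts was lost 5 times, without CXCR5-/- AB replicates 2 (adjusted p = 0.0683), 3 (adjusted p = 0.0698) and 4 (adjusted p = 0.0562) and without CXCR5-/- Sham replicates 1 (adjusted p = 0.111) and 2 (adjusted p = 0.0599). With the arrays of high Myl7 left out, it was -0.27 in CXCR5-/- hearts (adjusted p = 0.388) and -0.16 in WT hearts (adjusted p = 0.432), and with Myl7 as a covariate it was -0.31 in CXCR5-/- hearts (adjusted p = 0.14). With all probe sets tested the adjusted p in CXCR5-/- hearts was 0.053.

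Esrrb, which encodes ERR beta, known best from stem cells and placenta, was at 7.02, 6.60, 6.79 and 6.85 on CXCR5-/- AB arrays, against 7.03, 7.24 and 7.25 on CXCR5-/- Sham arrays. In WT hearts it was at 6.91, 6.57, 7.06 and 6.83 after AB, against 7.11, 7.04 and 7.33 after Sham. The CXCR5-/- groups were parted by CXCR5-/- AB replicate 1 and CXCR5-/- Sham replicate 1, which almost touched, and the WT groups overlapped. The difference was -0.36 in CXCR5-/- hearts (adjusted p = 0.0618) and -0.32 in WT hearts (adjusted p = 0.128). It passed in CXCR5-/- hearts without CXCR5-/- AB replicate 1 (adjusted p = 0.0372) and without WT AB replicate 2 (adjusted p = 0.0407). It also passed there with significance analysis of microarrays (q = 0.0217), with array weights (adjusted p = 0.00662) and with arrays quantile normalised again (adjusted p = 0.0366). The compared groups alone (adjusted p = 0.0476) and the replicate block (adjusted p = 0.0381) gave the call too. These were 5 of 13 such settings, and 2 of 14 fits that left out 1 array gave it (adjusted p up to 0.203). With Myl7 as a covariate the difference there was -0.38 and did not pass (adjusted p = 0.126). Leaving out the arrays of high Myl7 gave -0.43 in CXCR5-/- hearts and -0.34 in WT hearts.

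Esrrg encodes ERR gamma, an ERR of tissues with high energy use. It was at 7.72, 7.50, 7.78 and 7.84 on CXCR5-/- AB arrays, against 7.86, 7.88 and 7.90 on CXCR5-/- Sham arrays. On WT arrays it was at 7.71, 7.71, 7.92 and 7.76 after AB, against 7.98, 8.02 and 7.97 after Sham. AB arrays lay below Sham arrays in both genotypes, with differences of -0.17 (adjusted p = 0.285) in CXCR5-/- hearts and -0.22 (adjusted p = 0.182) in WT hearts.

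Tfam, the mitochondrial DNA factor, was at 7.16, 7.12, 6.73 and 6.99 on CXCR5-/- AB arrays, against 7.12, 6.96 and 7.18 on CXCR5-/- Sham arrays. In WT hearts it was at 7.10, 7.22, 7.08 and 6.73 after AB, against 7.51, 7.14 and 7.22 after Sham. The groups overlapped in both genotypes, and a single AB array of each was low. The difference was -0.09 in CXCR5-/- hearts (interval -0.36 to 0.19) and -0.26 in WT hearts (interval -0.53 to 0.02).

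**Figure D3:**
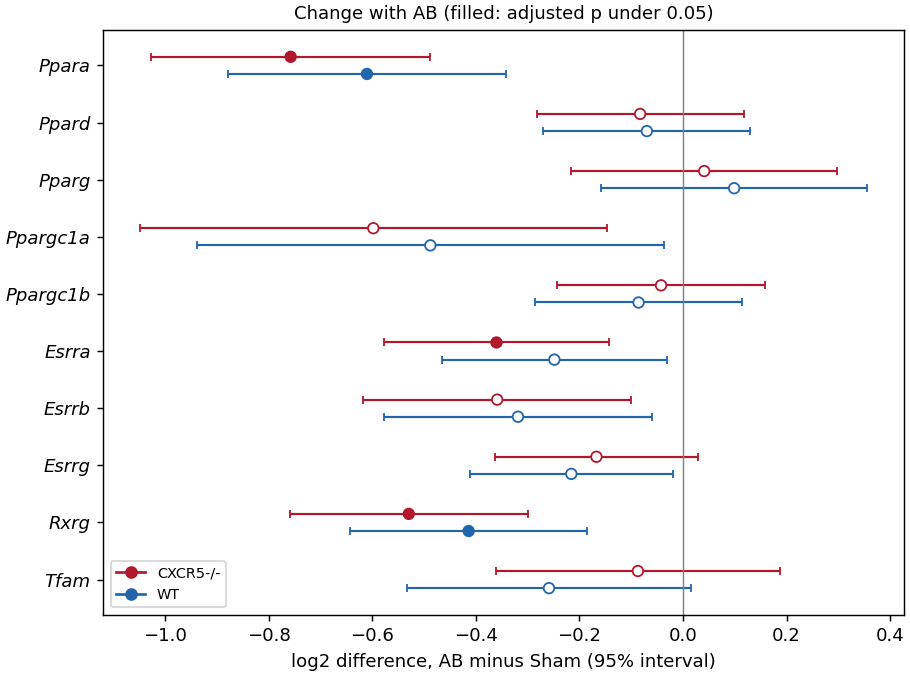
Log2 difference between AB and Sham for each gene with its 95% interval, in CXCR5-/- hearts (red) and WT hearts (blue). Filled points passed the test, which were Ppara and Rxrg in both genotypes and Esrra in CXCR5-/- hearts.

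By the ranges alone, 6 members lay wholly below Sham after AB in CXCR5-/- hearts, where 11.7% of all genes did, and 3 in WT hearts, where 7.74% did. The 6 were Ppara, Ppargc1a, Esrra, Esrrb, Esrrg and Rxrg, and the 3 were Ppara, Esrra and Esrrg. A mean of both AB responses, a contrast added after the data were examined, called 6 members lower, against 10.4% of all genes. These were Ppara (-0.68, adjusted p = 2.54e-05), Rxrg (-0.47, adjusted p = 0.000205), Esrra (-0.30, adjusted p = 0.00508), Esrrb (-0.34, adjusted p = 0.00833), Ppargc1a (-0.54, adjusted p = 0.0142) and Esrrg (-0.19, adjusted p = 0.0436). Esrrg passed in 3 of the 14 fits that left out 1 array, and the other 5 passed in all 14. Without the 3 arrays of high Myl7, Esrra (-0.22, adjusted p = 0.13) and Esrrg (-0.20, adjusted p = 0.176) were lost and 4 members passed.

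Markers of other cells moved with AB as well. Of 8 fibroblast markers, 8 passed upwards in CXCR5-/- hearts and 5 in WT hearts, with a list mean of 9.61 to 9.87 in CXCR5-/- AB, 8.42 to 8.73 in CXCR5-/- Sham, 9.30 to 9.88 in WT AB and 8.43 to 8.55 in WT Sham hearts. Of 8 macrophage markers, 5 and 4 passed upwards, and the list mean lay at 7.40 to 7.74, 6.90 to 7.02, 7.41 to 7.53 and 7.01 to 7.19 in the same order of groups. Of 10 cardiomyocyte markers, 4 and 2 passed downwards, with a list mean of 12.06 to 12.17 in CXCR5-/- AB, 12.32 to 12.35 in CXCR5-/- Sham, 12.10 to 12.17 in WT AB and 12.33 to 12.35 in WT Sham hearts. The median difference of the cardiomyocyte list was -0.20 in CXCR5-/- hearts and -0.19 in WT hearts. In whole ventricle, fewer cardiomyocytes and less RNA of a gene in each cardiomyocyte cannot be told apart. The part of these markers in the members' differences was not tested.

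The AB responses of the 2 genotypes were compared next, and no member passed. The difference of the responses, CXCR5-/- minus WT, ran from -0.15 for Ppara (interval -0.53 to 0.23) to 0.17 for Tfam (interval -0.22 to 0.56). No gene of all 19937 passed either (0.0%, limma), with 574 genes and 0 members at an unadjusted p under 0.05. The sign of this difference turned for Ppara without WT Sham replicate 1, where it was 0.05.

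Hearts labelled CXCR5-/- and WT were then set against each other after the same operation, and 0 members passed after AB or after Sham with limma. Over all genes 9 passed after AB (0.0451%) and 8 after Sham (0.0401%), and significance analysis of microarrays called 0 members too. With replicate number as a block 21 genes passed after AB, and 0 members. At an unadjusted p under 0.05 were 1185 genes after AB and 475 after Sham. Rxrg was the only member with an unadjusted p under 0.05, after AB. There all 4 CXCR5-/- arrays (7.051 to 7.265) lay below all 4 WT arrays (7.268 to 7.646), though the groups almost touched. The difference of Rxrg was -0.26 (SE 0.10, interval -0.47 to -0.05, adjusted p = 0.701), and 1.49% of all genes lay wholly lower in this comparison. After Sham, Ppargc1b lay at 7.63, 7.70 and 7.64 in CXCR5-/- hearts and 7.83 to 7.90 in WT hearts, a difference of -0.20 (interval -0.42 to 0.01). Esrrg also lay wholly lower in CXCR5-/- Sham hearts (-0.11, interval -0.32 to 0.10), as did 3.57% of all genes. Pparg lay wholly higher (0.12, interval -0.16 to 0.39), as did 3.28% of all genes. In a mean of both genotype differences, also added after the data were examined, 0 members and 0.0953% of all genes passed, and the largest member differences were Rxrg at -0.20 (adjusted p = 0.903) and Ppargc1b at -0.18 (adjusted p = 0.881).

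**Figure D4:**
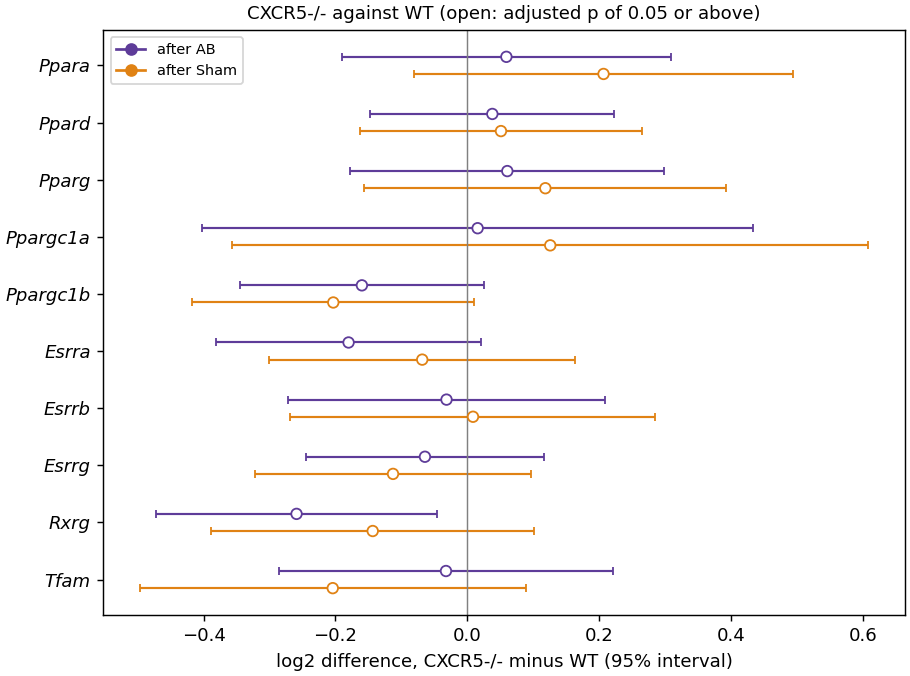
Log2 difference between CXCR5-/- and WT hearts for each gene with its 95% interval, after AB (purple) and after Sham (orange). No point passed the test, and the interval of Rxrg after AB (-0.47 to -0.05) leaves out 0.

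The genes that these regulators act on were read from lists of the pathway. Their counts stand beside the shares of all genes that passed. These shares were 5.86% lower and 8.28% higher in CXCR5-/- hearts and 4.22% lower and 5.1% higher in WT hearts. The lists were chosen with earlier results of these data known, so an excess over these shares is not an independent finding. Of 25 PPAR target genes measured, 17 passed the test as lower after AB in CXCR5-/- hearts (68%) and 14 in WT hearts (56%), and 0 passed as higher. Passed or not, 22 had a difference below 0 in CXCR5-/- hearts and 23 in WT hearts. The list median was -0.54 in CXCR5-/- hearts and -0.41 in WT hearts. Acadvl, the very long chain acyl-CoA dehydrogenase of the first step of beta-oxidation, averaged 9.57 ± 0.12 in CXCR5-/- AB and 10.38 ± 0.04 in CXCR5-/- Sham hearts, and 9.75 ± 0.06 in WT AB and 10.38 ± 0.02 in WT Sham hearts (SD). It fell by 0.82 in CXCR5-/- hearts and by 0.63 in WT hearts. Acaa2, the thiolase of the last step, fell by 0.86 in CXCR5-/- hearts and by 0.83 in WT hearts. The mitochondrial acyl-CoA thioesterase Acot2 fell by 1.18 in CXCR5-/- hearts and by 0.91 in WT hearts. Slc27a1, a fatty acid transporter, fell by 1.33 in CXCR5-/- hearts and by 1.15 in WT hearts, and Acot1, the cytosolic relative of Acot2, fell by 0.99 in CXCR5-/- hearts and by 1.15 in WT hearts. Acot1 and Acot2 are near-identical neighbours whose probes may share transcripts. Ucp3, the muscle uncoupling protein, named after its values were seen, had the largest difference of the list in CXCR5-/- hearts, -1.68, and -1.09 in WT hearts. Some well-known targets of the list did not pass in either genotype, such as Pdk4, which restrains glucose oxidation (-0.39 in CXCR5-/- hearts, adjusted p = 0.37, and 0.01 in WT hearts, adjusted p = 0.992), and Angptl4, an inhibitor of lipoprotein lipase (0.23, adjusted p = 0.604, and -0.06, adjusted p = 0.931), both also named after their values were seen.

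Of 25 mitochondrial genes driven by ERRs and PGC-1, 11 passed as lower in CXCR5-/- hearts (44%) and 9 in WT hearts (36%), and 0 passed as higher. Passed or not, 25 had a difference below 0 in CXCR5-/- hearts and 24 in WT hearts. The median was -0.31 in CXCR5-/- hearts and -0.23 in WT hearts. Sdha, the flavoprotein of complex II, fell by 0.57 and 0.58 in CXCR5-/- and WT hearts, and Sucla2, a subunit of succinyl-CoA ligase, by 0.50 and 0.47. Among complex I subunits Ndufs1 fell by 0.74 and 0.60 and Ndufv1 by 0.40 and 0.40, while Idh3a, the catalytic subunit of isocitrate dehydrogenase, fell by 0.50 and 0.46. With the arrays of high Myl7 left out, 7 PPAR targets passed in CXCR5-/- hearts and 9 in WT hearts, and of the mitochondrial list 3 and 6 passed. The count of the mitochondrial list in CXCR5-/- hearts was 6 without CXCR5-/- Sham replicate 2 or 3, and that in WT hearts was 5 without WT Sham replicate 2 or 3.

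Of 19 partners in mitochondrial biogenesis, 3 passed as lower in each genotype (15.8%). The count was 1 in each genotype without the 3 arrays of high Myl7, and 1 in WT hearts without WT AB replicate 1 or without WT Sham replicate 3. Twnk, the mitochondrial DNA helicase, fell by 0.68 in CXCR5-/- hearts and by 0.51 in WT hearts. The mitochondrial DNA polymerase Polg (-0.45) and the RNA polymerase Polrmt (-0.37) passed in CXCR5-/- hearts, and the transcription factor Mterf2 (-0.57) and the topoisomerase Top1mt (-0.38) in WT hearts. These differences between the genotypes were not called by the test of the difference. Of 21 related nuclear receptors, 3 passed as lower in CXCR5-/- hearts (14.3%) and 4 in WT hearts (19%). Thrb, a thyroid hormone receptor, fell by 0.78 and 0.74 in CXCR5-/- and WT hearts, the retinoic acid receptor Rarb by 0.99 and 0.81, and the mineralocorticoid receptor Nr3c2 by 0.48 and 0.60. Rxra, the main RXR of heart, fell by 0.54 in WT hearts and had a difference of -0.45 in CXCR5-/- hearts that did not pass.

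Of 20 coactivators and corepressors only Lpin1, which amplifies PGC-1 alpha and PPAR alpha activity in mouse liver, passed, at -0.73 in CXCR5-/- hearts and -0.53 in WT hearts. That is 5% of the list in each genotype, near the share of all genes. No gene of the list passed in WT hearts without WT Sham replicate 2 or 3, and 2 passed in CXCR5-/- hearts without CXCR5-/- AB replicate 1. With array weights 6 passed in CXCR5-/- hearts and 3 in WT hearts. Of 24 genes upstream of PGC-1, 2 passed as higher (8.33%) and 1 as lower (4.17%) in CXCR5-/- hearts, shares near those of all genes. In WT hearts 2 passed as higher (8.33%) and 3 as lower (12.5%). The WT total of 5 was 0 without WT Sham replicate 2, 1 without WT Sham replicate 3, 2 without WT AB replicate 1 and 3 without WT AB replicate 2 or 3. Without the 3 arrays of high Myl7, 1 gene passed in CXCR5-/- hearts and 3 in WT hearts. The AMPK subunit Prkab2 rose by 0.80 and 0.41 in CXCR5-/- and WT hearts, and the oxygen-regulated transcription factor Hif1a rose by 0.61 and 0.43. The p38 kinase Mapk14 fell by 0.39 and 0.44, and Klf15, a factor of lipid use in heart, fell by 0.65 in WT hearts and had a difference of -0.28 in CXCR5-/- hearts. The third gene that passed as lower in WT hearts was Mef2a (-0.35), a muscle transcription factor named after its value was seen. No gene of these 6 lists passed between the genotypes or in the difference of responses.

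**Figure D5:**
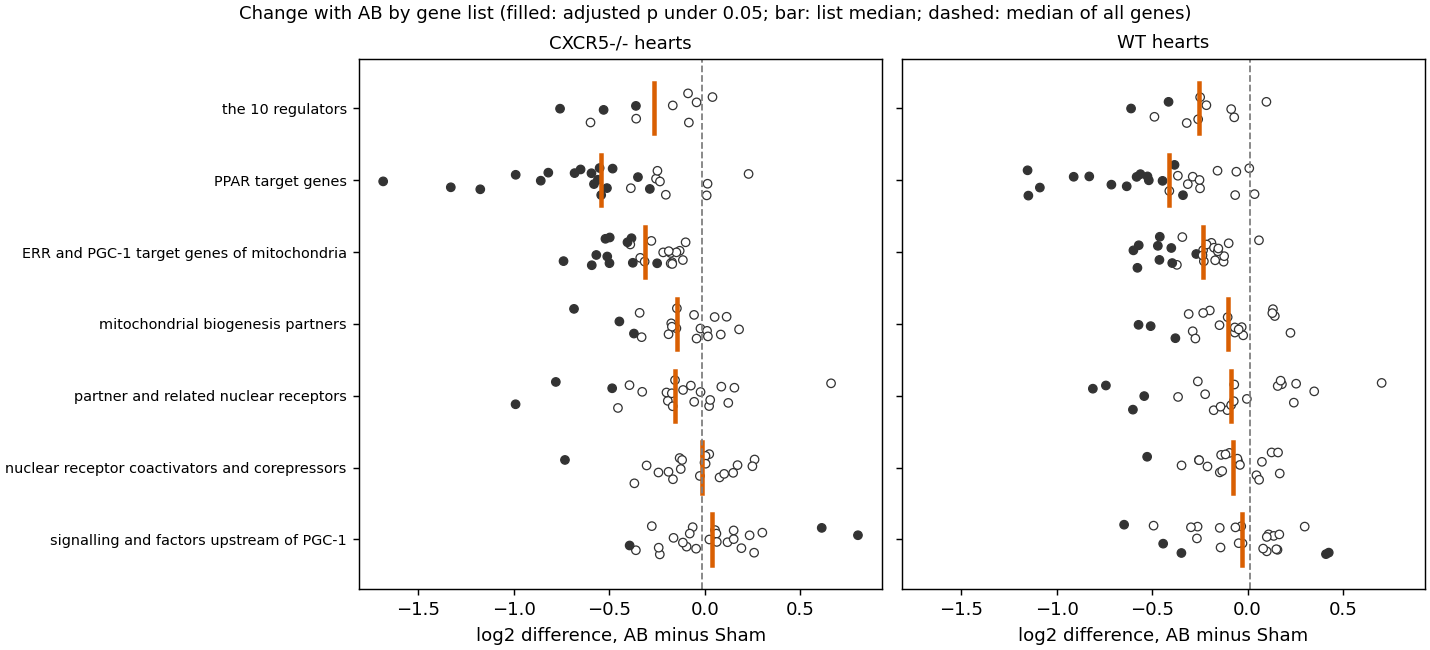
Log2 difference between AB and Sham for the genes of each list, in CXCR5-/- hearts (left) and WT hearts (right), with the list median as a bar and the median of all genes as a dashed line. The PPAR targets had the lowest medians, -0.54 and -0.41.

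By pattern over the 14 arrays, each gene centred on its own mean, the genes most like Ppara were Fry (root mean square difference 0.10, against an SD of 0.39 for Ppara itself) and Thrb (0.11). Those most like Rxrg were Hadh (0.09, SD of Rxrg 0.29) and Myadml2 (0.09). Those most like Esrra were Akr7a5 (0.06, SD of Esrra 0.21) and Ckm (0.07), the creatine kinase of muscle. These are measures of likeness over arrays that share 4 groups.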

How the data were processed

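RNA of left ventricles was hybridised to 1 Affymetrix mouse gene array per mouse, and arrays were grouped by their sample labels. The authors processed them with robust multi-array average and deposited log2 values per probe set, and its version was not found in the text or labels. These deposited log2 values entered every step as they stand (array medians 5.19 to 5.30). Among 34760 probe sets, 21640 carried a single gene symbol, 1321 several and 11799 none, and only the single-symbol ones were given a gene. RefSeq supplied current symbols for 21553. The brightest probe set stood for each of 19937 genes, 954 of which had a choice.

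A model of the 4 group means over all 14 arrays was fitted with limma 3.58.1 under R 4.3.3, using lmFit and eBayes. P-values were adjusted by Benjamini-Hochberg over the 19937 genes, with a threshold of 0.05, and they measure the spread between these mice. The number of arrays limits the precision. Significance analysis of microarrays, which the study's methods name, was run with all distinct permutations as an alternative. Further alternatives were eBayes with trend or robust, array weights, removal of dim genes, quantile normalisation, median centring, averaged probe sets, a test of every probe set, a fit of the compared groups only, a replicate block, and every array omitted once. Omitting the 3 arrays of high Myl7, a Myl7 covariate and the mean contrasts were added after seeing the data. The fit was tested on simulated data.

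Members and gene lists were chosen with earlier results of these data known. Named genes are the members, up to 4 genes per list and AB comparison past the threshold with the smallest p, and the 2 genes most like each member that passed. Some list genes were not analysed here. Groups share replicate numbers to which no label gives a meaning. Between CXCR5-/- AB and WT AB, all 4 same-numbered pairs had positively correlated deviations across genes (r 0.125 to 0.22). For replicates 2, 3 and 4, however, a WT AB array of another number correlated better. The Sham pairs between the genotypes were positive as well (r 0.451, 0.026 and 0.169 for replicates 1, 2 and 3). The blocked fit is given beside the AB comparison. The promoter of Ppargc1b is not reported here.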

Additional observations from a re-analysis of the deposited data

Results flagged for a closer look

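Within the AB groups of 4 arrays, the gap between an extreme array and its nearest neighbour was set against the range of the group for the 10 members, which made 20 groups, and chance alone flags about 1 in 20. In CXCR5-/- AB hearts, Ppara on replicate 3 was at 7.82 while the other 3 arrays were at 7.58 to 7.61. Esrra on replicate 1 was at 7.78 while the other 3 were at 7.46 to 7.50. Both outlying arrays lay on the side of the Sham values and below the lowest CXCR5-/- Sham array of the gene. No member differed between the genotypes in its AB response by the test of the difference.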

How the results depend on the processing

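Ppara passed lower with AB in both genotypes under every alternative run, with adjusted p up to 0.0179 in CXCR5-/- hearts and 0.0465 in WT hearts. Rxrg in CXCR5-/- hearts passed in all 14 fits that left out 1 array and in 12 of 13 other settings. The exception was the fit without the 3 arrays of high Myl7. The calls of Rxrg in WT hearts and of Esrra in CXCR5-/- hearts rested on few arrays and on the fit. In CXCR5-/- hearts 3 members passed, and the count was 5 with array weights, with the compared groups alone and with significance analysis of microarrays, 1 without the 3 arrays of high Myl7, and 2 to 4 with each array left out in turn. In WT hearts 2 passed, and the count was 1 with array weights, with all probe sets tested, with the compared groups alone, with significance analysis of microarrays and without the 3 arrays, and 1 to 2 with each array left out. Without those 3 arrays CXCR5-/- Sham held a single array, which was assumed to vary like the others. With replicate number as a block, 4 members passed in CXCR5-/- hearts and 2 in WT hearts, and 0 in the other comparisons, the added call being Esrrb in CXCR5-/- hearts (adjusted p = 0.0381). No label says what AB and Sham arrays of the same number share besides the number. For replicates 1, 2 and 3 their deviations correlated at r 0.135, -0.109 and -0.0078 in CXCR5-/- hearts. In WT hearts these were 0.264, -0.0625 and 0.139. The counts between genotypes stayed at 0. The mean of both AB responses called 4 to 6 members.

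Over all genes, 2818 passed with AB in CXCR5-/- hearts, 1858 in WT hearts, 9 between the genotypes after AB and 8 after Sham. With array weights these were 4770 in CXCR5-/- hearts, 3408 in WT hearts and 39 after Sham. With all probe sets tested 1176 passed in WT hearts, 4 after AB and 3 after Sham, with the compared groups alone 4 after AB, and with the replicate block 21 after AB. Without the 3 arrays of high Myl7, 844 passed in CXCR5-/- hearts, 5 after AB and 1 after Sham. With each array left out, 1002 to 2120 passed in WT hearts, 4 to 34 after AB and 3 to 8 after Sham.

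Signs turned only for differences that did not pass. With array weights the difference of responses was 0.012 for Ppara, 0.034 for Ppard and -0.019 for Tfam, and Ppargc1a between genotypes after AB was -0.0085. With median centring the difference of responses of Ppard was 0.0002, and with the mean of probe sets Ppargc1a after AB was -0.12. Without the 3 arrays of high Myl7 the difference of responses was 0.16 for Ppara, 0.075 for Ppargc1a and -0.027 for Tfam, and the genotype difference after Sham was -0.11 for Ppara and -0.0595 for Ppargc1a. With Myl7 as a covariate Pparg was at -0.028 with AB in CXCR5-/- hearts. With each array left out in turn the ranges that crossed 0 were these. For AB in CXCR5-/- hearts, Pparg -0.0314 to 0.0997, Ppargc1b -0.0741 to 0.0107 and Tfam -0.15 to 0.0027. For the difference of responses, Ppard -0.0704 to 0.0558, Esrrb -0.13 to 0.0335, Pparg -0.16 to 0.0302, Ppargc1b -0.0072 to 0.0982, Ppargc1a -0.40 to 0.14 and Ppara -0.28 to 0.0469. For the genotypes after AB, Ppargc1a -0.0816 to 0.11, Esrrb -0.12 to 0.0421, Esrrg -0.11 to 0.0070, Pparg -0.0419 to 0.15, Tfam -0.13 to 0.0572 and Ppard -0.0039 to 0.0722. For the genotypes after Sham, Esrrb -0.0502 to 0.0927, Ppard -0.0178 to 0.11, Ppargc1a -0.12 to 0.42 and Esrra -0.14 to 0.0172. The causes were not tested.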
